A study of Mus musculus with 4 samples.

Results

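A group of 10 genes of the oxidative stress response and of the transcription factor NRF2 was examined for occupancy by MED1 in the mouse macrophage-like cell line RAW 264.7. The genes were chosen by symbol (Nfe2l2, Keap1, Sqstm1, Gclc, Gclm, Slc7a11, Txnrd1, Hmox1, Sod2 and Cybb), and all 10 were found among the 21887 protein-coding genes that RefSeq places on chromosomes 1 to 19, X and Y of GRCm38.p6 (mm10). MED1 is a subunit of Mediator, the complex that joins transcription factors at enhancers and promoters to RNA polymerase II, and it was profiled by chromatin immunoprecipitation and sequencing. The study has 2 libraries of cells exposed for 2 h to lipopolysaccharide (LPS), a bacterial cell wall component, and 2 libraries of untreated cells. The LPS dose is 10 ng/mL in the sample labels but 100 ng/mL in the treatment protocol. All cells are of the same line, without a genetic change in the labels.

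A single list of MED1 intervals was available for the whole series. It has no heights, significance values or library names, so LPS-exposed and untreated cells could not be compared for any gene, and replicate error and read depth are unknown. Intervals that abut were joined into 22570 regions. A region was counted for a gene when it overlapped the gene or had its midpoint no more than 50 kb from one of the gene's ends. As a check of the cell type, 7 of 7 macrophage marker genes (Adgre1, Csf1r, Spi1, Cd68, Itgam, Lyz2 and Mrc1) were overlapped by a region, against 0 of 5 markers of other cell types (Cd3e, Alb, Myod1, Ly6g and Krt14) and 50.6% of all protein-coding genes. By the rule that includes the 50 kb windows, 7 of 7 macrophage markers had a region, against 1 of 5 markers of other cell types (Cd3e, with 3 regions) and 70.6% of all genes.

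NRF2, encoded by Nfe2l2, is held at low levels in resting cells by KEAP1, which presents it for ubiquitination and degradation. Electrophiles and oxidants modify KEAP1, and the autophagy receptor p62, encoded by Sqstm1, can sequester it. Released NRF2 pairs with small MAF proteins on antioxidant response elements and drives genes for glutathione synthesis, thioredoxin reduction and haem breakdown. In macrophages the pathway balances superoxide made by the phagocyte NADPH oxidase, whose catalytic subunit is the product of Cybb, and mitochondrial superoxide is removed by the dismutase SOD2, whose gene is a well-known target of NF-kB.

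Promoter sequences are shown for 5 of the genes because the MED1 regions differed in how they lay over these starts. The regions lay across the whole promoter and well beyond it (Nfe2l2, Sod2, Cybb), at an internal but not the outermost listed start (Txnrd1), or on either side of the start (Gclm). The only listed start of Cybb also lies inside the annotated gene. The letters are those of RefSeq (GRCm38.p6), written 5′ to 3′ on the strand of the gene. Each sequence ends at the base before the listed transcription start, except for Gclm. There the last 70 bases before the start, which lie within the annotated gene, are left out. The Txnrd1 and Cybb windows lie wholly within the annotated gene and are printed whole. Capitals mark matches on either strand to TGACNNNGC, the core of the antioxidant response element, to GGGCGG, the GC box, or to TGANTCA, an AP-1 type sequence.
Nfe2l2, chr2:75704664-75704913, minus strand: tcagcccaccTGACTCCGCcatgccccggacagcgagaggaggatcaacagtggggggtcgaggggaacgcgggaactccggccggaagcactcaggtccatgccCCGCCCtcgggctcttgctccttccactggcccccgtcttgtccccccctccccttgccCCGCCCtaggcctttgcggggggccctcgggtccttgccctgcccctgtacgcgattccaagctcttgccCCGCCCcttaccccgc
Gclm, chr3:122245307-122245486, plus strand: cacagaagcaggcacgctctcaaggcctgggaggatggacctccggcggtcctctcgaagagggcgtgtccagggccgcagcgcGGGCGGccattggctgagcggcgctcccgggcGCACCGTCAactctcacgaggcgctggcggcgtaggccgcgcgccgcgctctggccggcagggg
Txnrd1, chr10:82858956-82859205, plus strand: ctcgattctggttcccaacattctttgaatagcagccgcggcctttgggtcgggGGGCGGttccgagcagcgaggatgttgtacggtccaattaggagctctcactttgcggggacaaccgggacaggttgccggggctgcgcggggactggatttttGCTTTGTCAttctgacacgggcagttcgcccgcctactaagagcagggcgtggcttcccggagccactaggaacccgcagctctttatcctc
Sod2, chr17:13007589-13007838, plus strand: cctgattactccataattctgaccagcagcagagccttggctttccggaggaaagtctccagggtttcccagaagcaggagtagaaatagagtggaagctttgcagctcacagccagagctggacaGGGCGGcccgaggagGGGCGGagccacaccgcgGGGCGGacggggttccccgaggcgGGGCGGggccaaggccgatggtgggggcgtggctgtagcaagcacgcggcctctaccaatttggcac
Cybb, chrX:9469325-9469574, minus strand: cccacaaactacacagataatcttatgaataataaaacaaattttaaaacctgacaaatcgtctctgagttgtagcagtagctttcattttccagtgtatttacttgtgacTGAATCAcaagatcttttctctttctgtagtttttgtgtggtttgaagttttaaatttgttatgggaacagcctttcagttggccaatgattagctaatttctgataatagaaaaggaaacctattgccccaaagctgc

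MED1 regions were present at every gene of the group. All 10 genes had at least 1 region midpoint within 50 kb, a criterion met by 70.6% of all protein-coding genes, and all 10 were overlapped by a region, a criterion met by 50.6% of all genes. Counts ran between 2 regions at Cybb and 10 at Gclc, with a median of 6, beside a median of 2 (quartiles 0 and 5) over all genes. At least 6 regions, a number set after the counts had been seen, were found at 7 of the 10 genes and at 17.2% of all genes. The windows of the 10 genes did not share a region, and the counts add up to 59 regions made of 154 intervals. Of these regions, 15 overlapped the gene itself, 20 overlapped only other protein-coding genes and 24 lay outside any protein-coding gene. No test of the group was made, because its members were chosen with results of these data known.

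The genes differed in the width of their regions as well as in the number. The 59 regions measured between 590 and 29130 bp, with a median of 2409 bp (quartiles 1524 and 3630 bp), beside 1948 bp (quartiles 1302 and 3012 bp) over all regions. Regions that overlapped their gene had a median of 5588 bp, and regions that lay only in the surrounding window had 2095 bp. In the whole list, regions over any protein-coding gene had a median of 2034 bp, and those outside such genes 1720 bp. That split is by any gene, not by the gene counted. A region among the widest 5% of the whole list, 6782 bp or more, overlapped 5 of the 10 genes (Nfe2l2, Sqstm1, Slc7a11, Sod2 and Cybb), beside 4.38% of all protein-coding genes. All genes here include the 29.4% with no region within 50 kb. Neither expression nor gene length was taken into account in these shares. This width criterion was set after the widths had been seen. With the widest 10% Keap1 was added, giving 6 of 10 genes beside 7.8% of all genes.

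**Figure D1:**
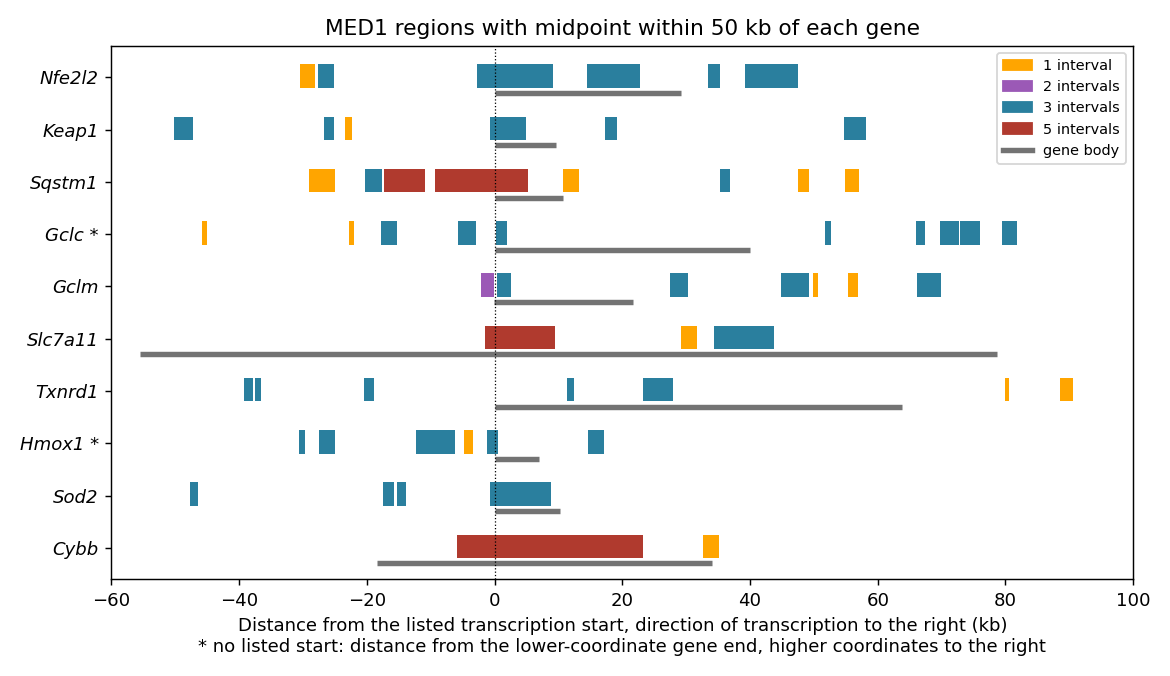
MED1 regions counted for each gene, drawn to scale against the distance (kb) from the listed transcription start or, for Gclc and Hmox1, from the lower-coordinate gene end, with the gene body as a grey bar and the colour giving the number of abutting intervals. Gclc, with 10 regions, has none wider than 3.1 kb, and Cybb, with 2 regions, has 1 of 29.1 kb.

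**Figure D2:**
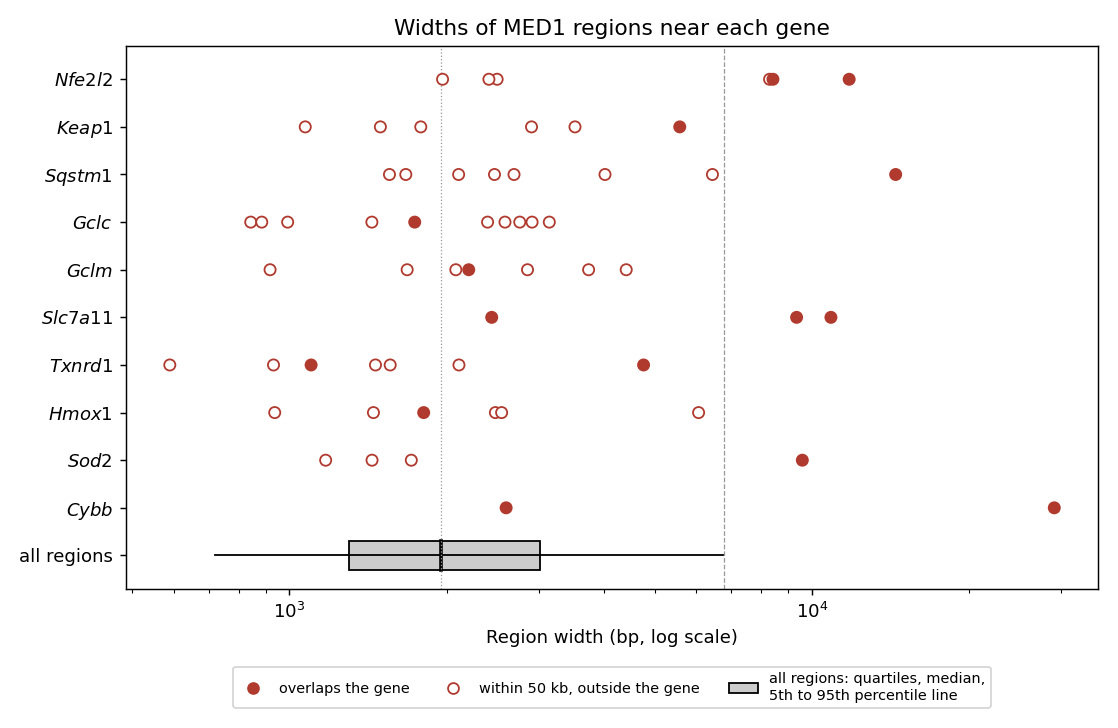
Width of each region (bp, log scale) for the 10 genes, filled where the region overlaps the gene and open where it lies in the 50 kb window only, above the quartiles and the 5th to 95th percentile line of all regions. The dotted line is the median of all regions and the dashed line their 95th percentile, which 7 regions over 5 genes and 1 region outside Nfe2l2 exceed.

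Among the regulators, Nfe2l2 itself (gene ID 18024, chr2:75675513-75704663, minus strand) had 6 regions, of which 2 overlapped the gene. The region over its start was 11.8 kb wide (chr2:75695571-75707363), reaching 2.7 kb upstream and 9.1 kb downstream of the start, and 98.5% of all regions were at most as wide. A region of 8.4 kb lay further inside the gene, 18.6 kb downstream of the start at its midpoint. Together they covered 60.1% of the gene body, beside a median of 2.9% over the 7666 genes within a factor of 2 in length. The promoter printed above lay wholly inside the region over the start. Its only antioxidant response element core, TGACTCCGC, began 240 bases before the start. The remaining regions were outside the gene. Those of 8.3 and 2.0 kb lay on the downstream side over Hnrnpa3, an RNA-binding protein gene, the wider of them over its start. Those of 2.5 and 2.4 kb lay 26.4 and 29.3 kb upstream in no protein-coding gene.

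Keap1 (gene ID 50868, chr9:21229730-21239332, minus strand) also had 6 regions, but only 1 overlapped the gene. It was 5.6 kb wide, reached 0.7 kb upstream and 4.9 kb downstream of the start, and covered 51.2% of the gene body, beside a median of 4.57% for genes of like length. The other regions measured between 1.1 and 3.5 kb. Of these, 3 lay over other genes: the phosphodiesterase gene Pde4a, the autophagy protease gene Atg4d, and the pair Kri1 and Cdkn2d.

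Sqstm1 (gene ID 18412, chr11:50200152-50210820, minus strand) had 8 regions within its window. The region over its start was 14.5 kb wide and made of 5 intervals (chr11:50205640-50220115). Unlike those of Nfe2l2 and Keap1, it reached further upstream of the start (9.3 kb) than into the gene (5.2 kb), and it covered 48.6% of the gene body. A second region of 5 intervals, 6.5 kb wide, followed at the end of Mgat4b that faces Sqstm1. Mgat4b is a glycosyltransferase gene, and a region of 2.7 kb overlapped it as well. Ltc4s, which encodes leukotriene C4 synthase, had a region of 4.0 kb over its start, 27.1 kb upstream of Sqstm1. Regions of 2.1 and 1.7 kb lay over Tbc1d9b, and those of 1.6 and 2.5 kb over Mrnip. The 2.5 kb region ended 81 bp from the downstream end of Sqstm1.

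The genes of glutathione synthesis differed from each other in the form of their MED1 regions. Gclc and Gclm encode the catalytic and the modifier subunit of glutamate-cysteine ligase, the rate-limiting enzyme of glutathione synthesis, and Slc7a11 encodes the xCT subunit of the cystine importer that supplies the cysteine. The ligase genes had 10 and 7 regions, the widest of 4.4 kb, and the importer gene had 3, of 10.9, 9.4 and 2.4 kb.

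Gclc (gene ID 14629, chr9:77754535-77794489) had the most regions of the group, 10, with widths between 843 and 3144 bp. At most 10 regions were counted at 98.7% of all genes. Only 1 overlapped the gene, and it began 284 bp inside the lower-coordinate end and covered 4.3% of the gene body, close to the median of 2.4% for genes of like length. No start is listed for Gclc in the table used here. On the lower-coordinate side, 4 regions lay with midpoints 4.3, 16.5, 22.4 and 45.5 kb from that end. On the other side, 5 regions began between 11.8 and 39.5 kb beyond the higher-coordinate end. None of these 9 regions overlapped another protein-coding gene.

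Gclm (gene ID 14630, chr3:122245487-122267215, plus strand) had 7 regions. Its listed start at position 122245557 lay in a gap of 509 bp between regions of 2.1 kb and 2.2 kb. The upstream region ended 108 bp before the start and the downstream region began 402 bp after it. Of the 250 bases before the start, 143 were inside the upstream region. They hold the antioxidant response element core TGACGGTGC, which is on the strand opposite to the gene and appears above as GCACCGTCA, between 134 and 126 bases before the start. Gclm was the only gene of the 8 with a listed start that had no region over any of its starts. Its other regions were 0.9 to 4.4 kb wide and lay beyond the gene on the downstream side, the first of them over the start of Dnttip2 and the remaining 4 in no protein-coding gene.

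Slc7a11 (gene ID 26570, chr3:50364936-50499087, minus strand) had 3 regions, all inside the gene, and none in the 50 kb beyond either end. The nearest midpoint outside that window was 108.5 kb from the gene. The region over the listed start, at position 50443613, was 10.9 kb wide and made of 5 intervals. It reached 1.5 kb upstream and 9.4 kb downstream. The listed start lies inside the annotated gene, so the upstream part of the region is also gene body. A region of 9.4 kb and a region of 2.4 kb lay 39.0 and 30.4 kb downstream of the start. The gene is 134.2 kb long as annotated, and 16.9% of it was covered, beside a median of 1.0% for the 3089 genes of like length. No TGACNNNGC match was found in the 250 bases before the listed start.

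Txnrd1 encodes the cytosolic thioredoxin reductase and Hmox1 the inducible haem oxygenase, and both are standard NRF2 targets. Txnrd1 (gene ID 50493, chr10:82833951-82897724, plus strand) had 7 regions and 3 listed starts. The outermost start, at 82833951, had no region over it, and no base of the 250 before it was in a region. The other starts, at 82859206 and 82860341, lay together in a region of 4.8 kb (chr10:82857127-82861890), which reached 2.1 kb upstream of the first of them and 1.5 kb downstream of the second. The promoter at 82859206, printed above, has the core TGACAAAGC on the opposite strand, between 92 and 84 bases before the start, where it reads GCTTTGTCA. The gene also held a region of 1.1 kb, and the 5 regions outside it measured between 0.6 and 2.1 kb.

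Hmox1 (gene ID 15368, chr8:75093618-75100593) had 6 regions and its widest lay outside the gene. A region of 1.8 kb crossed the lower-coordinate gene end (chr8:75092416-75094222). No start is listed for it here. A region of 1.4 kb, made of a single interval, had its midpoint 4.0 kb from that end on the lower-coordinate side, and a region of 6.1 kb (chr8:75081293-75087364) had its midpoint 9.3 kb from it on the same side. That region was wider than the one at the gene end, and 93.5% of all regions were at most as wide. As background, mouse Hmox1 is known for a pair of upstream enhancers that carry repeated antioxidant response elements; whether these regions match them was not tested. Regions of 2.5 and 0.9 kb lay over the neighbouring Tom1, a gene of endosomal sorting. On the far side, a region of 2.5 kb lay over the start of Mcm5, a replication helicase gene. Regions covered 8.7% of the Hmox1 body, beside a median of 0 for genes of like length. Ranked among genes of like length, this share stood only a little above the middle. For no other gene of the group was that rank lower.

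**Figure D3:**
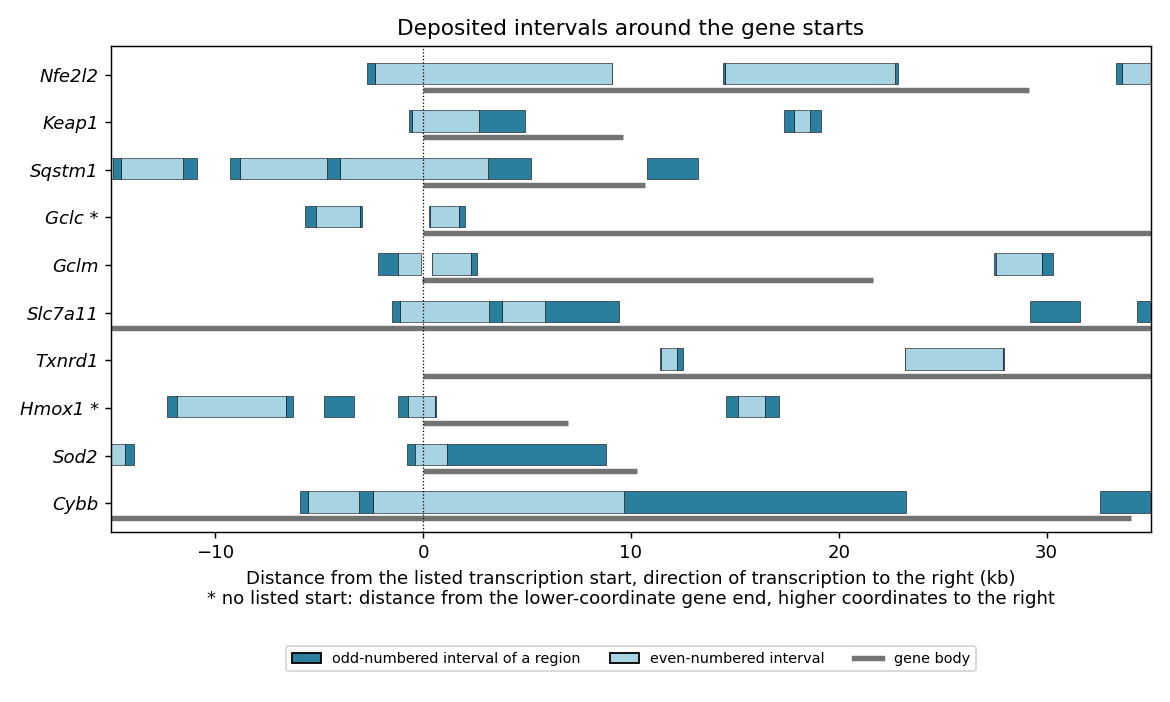
Deposited intervals near the gene starts, drawn to scale against the distance (kb) from the listed start or, for Gclc and Hmox1, from the lower-coordinate gene end, with alternate shading for successive intervals of a region and the gene body as a grey bar. The start of Gclm falls between regions. The last interval of the Sod2 region and the 13.6 kb interval of the Cybb region lie inside the gene, downstream of the interval that holds the start.

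Each of the superoxide genes had a wide region over its start that also covered most of the gene body. Sod2 (gene ID 20656, chr17:13007839-13018119, plus strand) had 4 regions. Its own region was 9.6 kb wide (chr17:13007043-13016635), beginning 0.8 kb before the start and ending 8.8 kb after it. It covered 85.6% of the gene body, the highest value of the group, beside a median of 4.6% for the 6864 genes of like length, of which 98.6% were covered at most to that share. The promoter printed above lay inside the region and has 4 GC boxes within 124 bases of the start. The other regions, of 1.2 to 1.7 kb, lay over Acat2 and, in 2 cases, Wtap.

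Cybb (gene ID 13058, chrX:9435252-9487766, minus strand) had 2 regions, the median of all genes, and the widest region of the group. It measured 29.1 kb (chrX:9446099-9475228) and stood at rank 21 of the 22570 regions by width. It reached 5.9 kb upstream of the listed start at 9469324 and 23.2 kb downstream. That start lies inside the annotated gene, so the upstream part of the region is also gene body. The second region, of 2.6 kb, lay over the downstream gene end. Together they covered 58.3% of the gene body, beside a median of 2.14% for genes of like length. The next region midpoint was 175.0 kb from the gene. The printed Cybb promoter has the letters TGAATCA between 139 and 133 bases before the start, and no match to TGACNNNGC, GGGCGG or GAGGAAGT, a sequence bound by the myeloid factor PU.1.

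The make-up of the regions from intervals also differed. Of the 59 regions, 39 had 3 intervals (66.1%, beside 60.4% of all regions), 15 had a single interval (25.4%, beside 35.3%), 4 had 5 intervals and 1 had 2. What a boundary between intervals stands for is not stated for this list. In regions of 3 intervals the middle interval was usually the widest, as in 92.4% of the 13627 such regions of the list and in 36 of the 39 here. The Sod2 region was an exception. Its start lay in a middle interval of 1.6 kb, and the last interval, 7.6 kb long over the gene body, made up 79.5% of the region. In 99.9% of all regions of 3 intervals, and in 98.2% of the 602 such regions among the widest 5%, the larger outer interval took a smaller share. The region inside Slc7a11 was another, with an outer interval of 54.9% of the width, and so was the 2.7 kb region over Mgat4b, with 49.4%. In contrast, the middle interval made up 96.5% of the region over the Nfe2l2 start and 98.7% of that over the internal Txnrd1 starts. In the Cybb region the start lay in an interval of 12.1 kb, and the adjoining interval of 13.6 kb covered the gene further downstream.

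A region lay over a listed start at 7 of the 8 genes that have one in the table, beside 42.8% of the 17492 protein-coding genes with a listed start. These 7 regions had a median width of 10882 bp, beside 2249 bp for the 6789 regions over listed starts in the whole list. Of the 6789 regions, 86.6% were at most as wide as the Txnrd1 region and 90.2% at most as wide as the Keap1 region. The corresponding shares were 96.7% for Sod2, 97.4% for Slc7a11, 97.8% for Nfe2l2, 98.8% for Sqstm1 and 99.9% for Cybb.

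**Figure D4:**
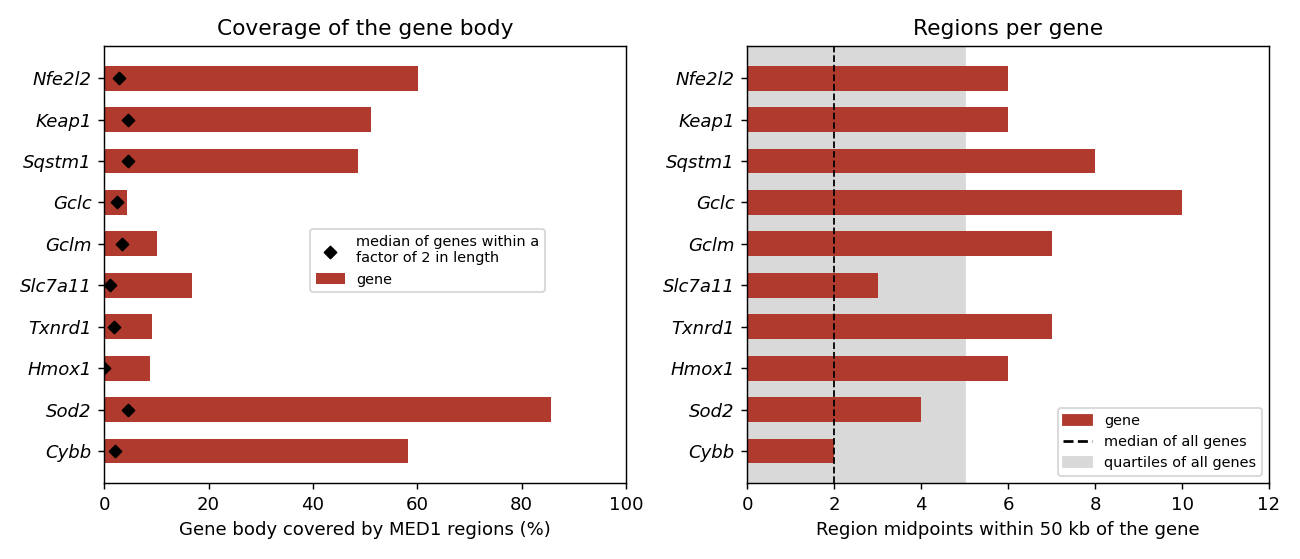
Left, share of each gene body covered by MED1 regions (%, bars), with the median of genes within a factor of 2 in length as diamonds. Right, number of region midpoints within 50 kb (bars), with the median (dashed) and quartiles (grey band) of all protein-coding genes; Sod2 has the highest coverage with 4 regions, and Gclc the highest count with 4.3% coverage.

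When regions at most 12.5 kb apart were stitched, 3 of the 10 genes were overlapped by a region of a cluster among the largest 5% by covered length, beside 5.39% of all genes. The number was 1 when clusters were ranked by their number of regions, and 4 with stitching within 5 kb, both alternatives chosen after the data were seen. No share of all genes is given for either alternative, so these numbers cannot be set beside a background. The Cybb cluster covered 31.7 kb and ranked 121 of 13554. The Nfe2l2 cluster, which takes in the regions at Hnrnpa3, covered 30.5 kb and ranked 135. The Sqstm1 cluster, which takes in those at Mgat4b and Ltc4s, covered 30.1 kb and ranked 138. The Slc7a11 regions stayed apart as clusters of 11.8 and 10.9 kb, and the Sod2 region stayed alone at 9.6 kb. Summed over the 50 kb windows, covered length ran between 12.5 kb at Txnrd1 and 35.4 kb at Sqstm1 and Nfe2l2, with a median of 18.8 kb, beside 4.24 kb over all genes. Longer genes have longer windows, and this was not corrected.

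Matches to the antioxidant response element core were counted in the promoters. In the 250 bases before each listed start, TGACNNNGC was found for 3 of the 8 genes (Nfe2l2, Gclm and Txnrd1), in 3 of their 10 windows, beside 10.4% of 21238 promoter windows of the same length. GGGCGG was found in 6 of the 10 windows, beside 42.6% of all windows, TGANTCA in 1 (Cybb), beside 6.14%, and GAGGAAGT in 0, beside 2.23%. Both strands were searched, and TGANTCA and TGACNNNGC can overlap. Elements outside these windows were not searched.

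Other genes of the pathway were described in the same way. Of 48 such genes, 46 had a region within 50 kb (95.8%, beside 70.6% of all genes), with a median of 4.5 regions, and 43 were overlapped by a region (89.6%, beside 50.6%). Among the 41 with a listed start, 35 had a region over it (85.4%, beside 42.8%). A region among the widest 5% overlapped 11 of the 48 (22.9%, beside 4.38%). The most regions were counted at Prdx5 (11), a peroxiredoxin gene, at Mafg (10), which encodes a small MAF partner of NRF2, and at Taldo1 (10), which encodes transaldolase of the pentose phosphate pathway. Maff, Gpx4, the lipid peroxide reductase gene, and Bach2, a relative of the NRF2 competitor BACH1, had 9 each. Bach2 is a far longer gene (chr4:32238413-32586109), and counts were not corrected for length. Of its regions, 8 overlapped the gene and covered 5.7% of it, with none over a listed start. Mgst1 and Sod3, which encodes the extracellular superoxide dismutase, had none, with the nearest midpoints 385.8 and 173.5 kb away.

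By role, the share of genes overlapped by a region is read beside the 50.6% of all genes. Partners and repressors of NRF2 were overlapped in 7 of 8 cases, with a median of 6.5 regions, and genes of quinone and haem metabolism in 4 of 5, with a median of 6. Other glutathione genes were overlapped in 6 of 8 cases, with a median of 5 regions, and thioredoxin and peroxiredoxin genes in 9 of 9, with a median of 4. Genes of superoxide and peroxide removal were overlapped in 2 of 3 cases, and their median of 1 region was below the 2 of all genes. Genes of NADPH supply were overlapped in 6 of 6 cases and the other NRF2 targets in 4 of 4, with a median of 4.5 regions each. Further genes of the phagocyte NADPH oxidase (Cyba, Ncf1, Ncf4, Rac2 and Cybc1) were overlapped in 5 of 5 cases, with a median of 5. Cybb had a region of 29.1 kb, and the widest over any of these 5 genes was 9.4 kb, at Ncf1. Slc3a2, which encodes the partner chain of xCT, had 6 regions and was overlapped by a region of 11.1 kb. The widest regions over other pathway genes were those at the ferritin heavy chain gene Fth1 (22.5 kb), the peroxiredoxin gene Prdx2 (17.6 kb) and the phosphogluconate dehydrogenase gene Pgd (12.2 kb). Fth1 (chr19:9980600-9985111) and Prdx2 (chr8:84969622-84974811) are much shorter than these regions, which lay largely outside them. The nearest region midpoints were 1.0 kb from Fth1 and 0.4 kb from Prdx2, and 50.5% of Prdx2 was covered. Other genes under these regions were not looked up. Fth1, Prdx2, Pgd, Slc3a2 and the named oxidase genes were picked after their values had been seen. Nqo1, a commonly used NRF2 target, had 2 regions within 50 kb, the median of all genes. It was not overlapped by a region, and its nearest region midpoint was 21.8 kb away. Some other pathway genes were not overlapped either, as the counts by role show.

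**Figure D5:**
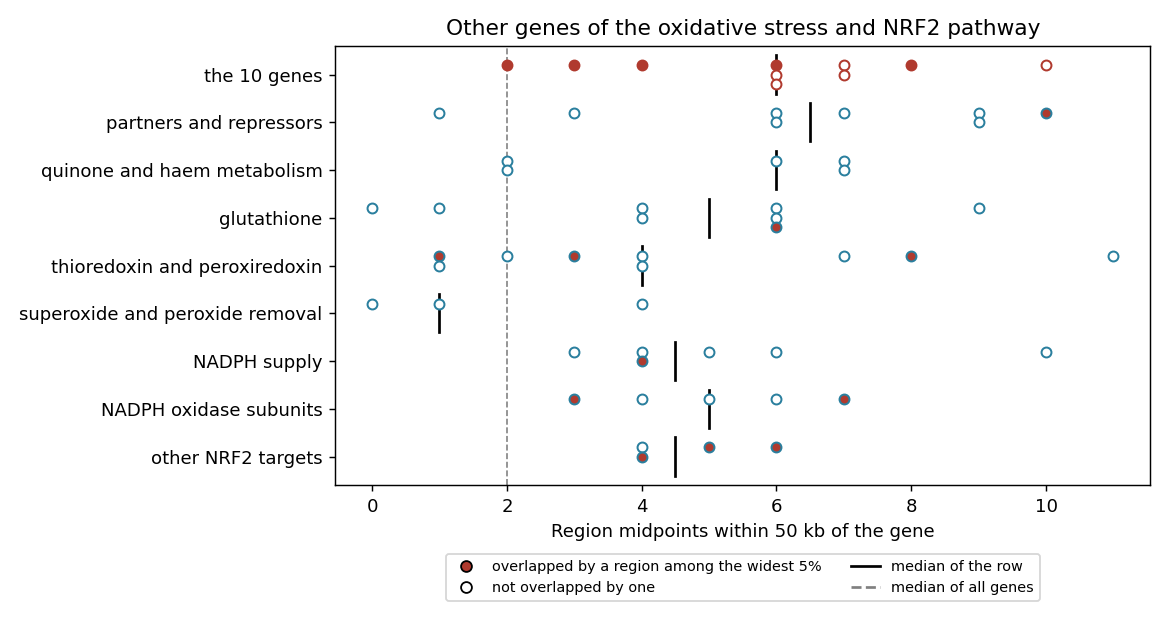
Number of region midpoints within 50 kb of each gene, for the 10 genes and for 48 other pathway genes by role; filled points are genes overlapped by a region among the widest 5%, short lines are row medians and the dashed line is the median of all protein-coding genes. Row medians lie between 1 and 6.5, and only Mgst1 and Sod3 are at 0.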

How the data were processed

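MED1 ChIP-seq was made from 2 LPS-exposed and 2 untreated libraries, grouped by their labels. Per the submitters' processing notes, Bowtie, SAMtools, MACS2 2.2.6 and build mm10 were used. The peak-calling settings, any control library and any pooling were not given in the sources used here. What was deposited is a list with chromosome, start and end of 53764 intervals, in bp; the authors' score column is 0 throughout. It has 0 columns of other samples. Depth is unknown, and no interval could be assigned to a library, so no precision per library can be given.

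Abutting intervals were joined and 4 mitochondrial intervals left out. Gene positions were read from a RefSeq gene table (GRCm38.p6), and strands and transcription starts from the promoter table of the same build, which lists starts for 8 of the 10 genes. Coordinates are 1-based. Percentiles give the share of regions or genes at or below a value. No test was run: the genes, the pathway list and the criteria were chosen with earlier results of these data known, so counts are set beside the same counts over all protein-coding genes. Named genes were the 10 genes, up to 6 pathway genes with the most regions and up to 6 with none, and neighbours overlapped by a counted region (up to 3 per gene by distance; further neighbours at Keap1 and Sqstm1 were named after their values were seen, as were the pathway genes said so above, the oxidase subunits and Nqo1). Some genes of the marker and pathway lists are not reported here and are left out of the counts. Counting was tested on simulated data. Alternatives were unjoined intervals, joining within 500 bp, windows of 10 and 100 kb, regions at or above the median width, single-interval regions left out, any overlap with the window, and regions over another gene left out; those on widths and clusters were added after the data were seen. Python 3.11.15, numpy 2.4.6, pandas 2.3.3 and matplotlib 3.10.9 were used.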

Additional observations from a re-analysis of the deposited data

How the results depend on the processing

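Under all 8 alternatives to the counting of regions, the 10 genes had a region within their window, and 7 had a region over a listed start wherever that was recounted. The start of Gclm, which had none, lies in a gap of 509 bp, just wider than the 500 bp setting for joining. Of all genes, 57.8% had a region within 10 kb, 77.1% within 100 kb and 56.0% at or above the median width. The share was 65.8% without single-interval regions, 70.6% with joining within 500 bp, and 70.8% for unjoined intervals and for any overlap. With regions over another gene left out, no such share is given. The number overlapped by a region was 10, and 8 when narrower regions than the median were left out. For the counts of overlap and of starts, no share of all genes is given under the alternatives. The median count of 6 and the total of 59 regions became 16 and 153 for unjoined intervals, 2 and 24 within 10 kb, 9.5 and 90 within 100 kb, 3 and 36 for regions at or above the median width, and 3 and 39 with regions over another gene left out. The medians over all genes were 5 for unjoined intervals, 1 within 10 kb, 4 within 100 kb and 1 at or above the median width of regions. No median over all genes is given with regions over another gene left out, so the median of 3 there has no comparison. The number of pathway genes with a region, to be read beside the same shares of all genes, lay between 41 and 46. The 41 came with regions over another gene left out, where no share is given. With clusters ranked by number of regions, 1 gene lay in the largest 5%, against 3 by covered length, and 4 did with stitching within 5 kb. Only the count by covered length has a share of all genes beside it (5.39%). No paired analysis was possible because no value belongs to a library and no test was run. For the same reason no replicate could be left out. Narrow or weak occupancy below the unknown peak threshold would not appear in the list.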
